A study of Mus musculus with 14 samples.

Results

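Primary bone marrow-derived macrophages (pBMDMs) exposed to the supernatant of ferroptotic fibroblasts were compared with pBMDMs given supernatant of fibroblasts in which the same death trigger was blocked by Ferrostatin-1 (Fer-1). The members were fixed by the sample names alone: 3 libraries of the 4OHT supernatant and 3 of the 4OHT+Fer1 supernatant, matched by replicate number, which are 6 of the 14 libraries of the series. All 12851 of 55414 gene identifiers that passed a filter on low counts were tested. The supernatants came from Pfa1 mouse embryonic fibroblasts (MEFs), a line in which 4-hydroxytamoxifen (4OHT, 1 μM) removes the gene of glutathione peroxidase 4 (GPX4). In the 4OHT group the MEFs received 4OHT alone, and in the 4OHT+Fer1 group they received 4OHT and 1 μM Fer-1, so both groups share the GPX4 knockout and the drug that triggers it. The other groups were supernatant of untreated MEFs (ctrl), supernatant with Fer-1 alone (Fer1), each with 3 replicates, and a medium control (medium, 2 replicates), taken here as medium without MEFs. The pBMDMs of all groups were wildtype, were derived with M-CSF (25 ng/ml) from C57BL/6N mice of 6 to 9 weeks, and received filtered supernatant for 24 h. The drugs were added to the MEFs whose supernatant was transferred, 4OHT in both groups and Fer-1 in 1 of them, so within this comparison alone the death of the MEFs and the presence of Fer-1 cannot be told apart. The ctrl against Fer1 comparison, which shares no library with it, gives the effect of Fer-1 on supernatant of living MEFs.

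Ferroptosis is a necrotic form of cell death in which iron-dependent peroxidation of membrane lipids goes unchecked, normally because GPX4, which reduces lipid hydroperoxides, is lost or inhibited. Fer-1 traps lipid radicals and keeps such cells alive and their membranes closed. Macrophages are the cells that take up debris of dying cells, and in culture with M-CSF they also divide, so that a bulk transcriptome holds both their inflammatory state and their cell cycle.

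Between the groups, 38 genes rose (0.296% of the genes tested) and 94 fell (0.731%) in pBMDMs exposed to ferroptotic supernatant, where a call required a change beyond 1 on the log2 scale in either direction together with an adjusted p below 0.05 in the quasi-likelihood test of edgeR. The genes that rose included the cytokine gene Il1b, the transcriptional regulator Id3, the scavenger receptor Marco, the C-type lectin Clec4n, genes of MHC class II presentation (Cd74, H2-Ab1, Ciita) and matrix and plasminogen genes (Thbs1, Vcan, Serpinb2). Those that fell included the fatty acid desaturases Scd1, Scd2 and Fads2 and 36 genes of DNA replication, mitosis and DNA repair, as well as the fractalkine receptor Cx3cr1. The median change was a log2 fold change of 1.70 among the genes that rose, of which 15 changed over 4-fold, and of -1.38 among those that fell, of which 6 did. All 132 moved the same way within each of the 3 replicate numbers, as did 3789 of the 12851 genes tested. The 132 were selected on these same values. The 3 values of one group lay entirely above those of the other for 31 of the 38 and entirely below for 82 of the 94. Over all genes tested, 4.4% had every 4OHT library above every 4OHT+Fer1 library and 5.8% had it below.

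**Figure D1:**
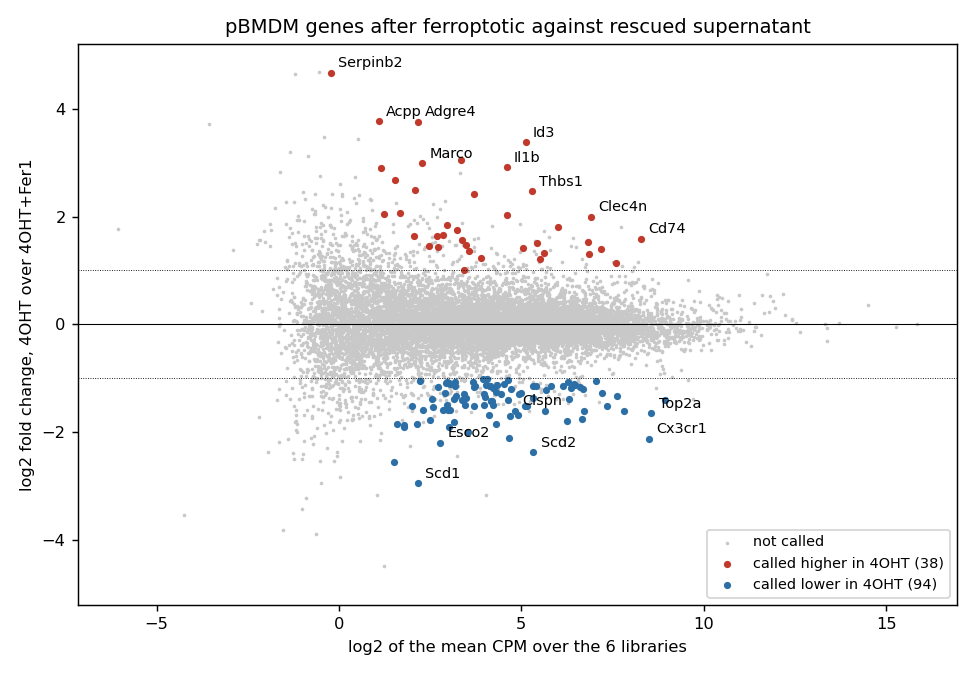
Each point is 1 gene, with the log2 of its mean CPM over the 6 libraries on the x axis and its fitted log2 fold change of 4OHT over 4OHT+Fer1 on the y axis; dotted lines mark a log2 fold change of 1 and -1, and 11 genes beyond 5.2 in either direction, none called, and 1 gene with no count in these libraries are not drawn. The 38 genes called higher (red) reach a log2 fold change of 4.67 at low levels, and the 94 called lower (blue) include abundant genes such as Top2a and Cx3cr1.

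How many genes passed depended on the libraries. Without replicate 1, 2 or 3 of the 4OHT group, 20, 31 and 282 genes were called, and without replicate 1, 2 or 3 of the 4OHT+Fer1 group 68, 42 and 18. With a whole replicate number left out of every group, 0 genes were called without replicate 1 (915 at an unadjusted p under 0.05), 0 without replicate 2 (621) and 217 without replicate 3. The count was 18 without the replicate block, 37 when only these 6 libraries were fitted, 230 without a filter on low counts and 247 with DESeq2. In each of these fits, those of the 132 genes that were tested kept their direction. As they were selected on these same libraries, this is no independent support.

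The 6 libraries held between 7823051 and 11052352 counts, and 3 counts, taken as the least that can be told from none, stood for 0.271 to 0.383 CPM (counts scaled to the library total with TMM factors). All 11 macrophage markers looked at, among them Adgre1 (F4/80), Itgam (CD11b) and Cd68, had over 3 counts in all 6 libraries and none was called. Of 18 fibroblast markers, 8 had over 3 counts in every library and 3 (Lum, Thy1 and Pdgfra) had at most 3 counts in each of them. Their summed level was 41.5 to 132 CPM in 4OHT, 45.2 to 242 CPM in 4OHT+Fer1 and 84.3 and 263 CPM in the medium control. Col1a1, a collagen chain gene, was called lower in 4OHT (12.1, 5.08 and 13.0 CPM against 27.9, 6.90 and 41.6 CPM). None of the 7 lymphocyte and 7 dendritic cell markers had enough counts to be tested, and the neutrophil markers summed to 22.4 to 78.5 CPM in 4OHT and 25.6 to 31.9 CPM in 4OHT+Fer1. The largest part of this sum was Csf3r in each library, with 50.3, 35.4 and 18.3 CPM in 4OHT and 22.8, 12.7 and 20.6 CPM in 4OHT+Fer1. Elane, Ly6g and Mpo had no count in these 6 libraries. In bulk RNA, fewer cells of a type and less RNA per cell cannot be told apart. The replicate 3 libraries had the largest share of mitochondrial counts in both groups (10.6% against 4.53% and 6.61% in 4OHT, and 8.63% against 6.22% and 5.98% in 4OHT+Fer1). The part of these shares and of the levels of collagen genes and listed neutrophil markers in the results was not tested.

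The promoters of cell cycle genes are shown first, since these genes made up the largest named group among the falls. E2F factors bind sites such as TTTCCCGC, TTTGGCGC, TTTCGCGC and TTTGCCGC near the start of DNA replication genes, and the cell cycle homology region TTTGAA, together with CCAAT boxes, is typical of genes that peak in mitosis. The windows below are 30 bases around a match of an E2F site in a replication or mitosis gene that fell, from RefSeq's start sites in GRCm38.p6, written 5′ to 3′ on the gene's strand with the match, or its reverse complement, in capitals.
Clspn, chr4:126556990-126557019, plus strand: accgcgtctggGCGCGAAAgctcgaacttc
Ncapg, chr5:45669945-45669974, plus strand: tgtcggaagccGCGGGAAActgagtcctcc
Cenpm, chr15:82244389-82244418, minus strand: tcgaacgtggcTTTCCCGCgtttcgaggag
Lig1, chr7:13278841-13278870, plus strand: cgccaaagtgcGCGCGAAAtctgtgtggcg
The next windows hold a match of TTTGAA in mitosis genes that fell, marked in the same way.
Ttk, chr9:83834684-83834713, plus strand: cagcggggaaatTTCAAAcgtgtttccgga
Kif20b, chr19:34922353-34922382, plus strand: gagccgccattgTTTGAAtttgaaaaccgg
Ncapg, chr5:45669883-45669912, plus strand: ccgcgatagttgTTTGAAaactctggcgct
Kif4, chrX:100626072-100626101, plus strand: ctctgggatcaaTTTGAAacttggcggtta

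Promoter windows of 250 bases before to 50 after the start were matched by symbol for 74 of the 94 genes that fell, for 23 of the 38 that rose and for 9402 genes tested. A gene was counted if any window under its symbol held the motif, so the shares are of genes with a window. Searching both strands, an E2F site was in 17.6% of the genes that fell, against 4.85% of the genes tested and 2.6% of all 27025 genes. TTTGAA was in 32.4%, against 14.7% and 20.2%. CCAAT was in 68.9%, against 43.5% and 41.1%. Both TTTGAA and CCAAT were in 24.3%, against 6.16% and 7.97%. By list, 39.0% of the DNA replication genes (16 of 41) held an E2F site and 17.1% held TTTGAA. Of the mitosis genes, 7.69% held an E2F site and 71.2% (37 of 52) held TTTGAA. Among genes that rose, 4.35% held an E2F site and 26.1% TTTGAA. The sterol response element TCACNCCAC was in 1 of the 74 genes that fell, against 1.44% of all genes with a window. Of the 3 desaturase genes that fell, 1 had a window. The X box CCTAGNAAC of MHC class II genes was in none of the 23 that rose, against 1.79%. It was in 2 of the 11 MHC class II genes tested that had a window. Numbers this small say little. A match describes letters in a window and does not mark a bound site.

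DNA replication was the first of the cell cycle lists. Of 50 members tested, 11 fell (22%, beside 0.731% of all genes) and none rose. The median log2 fold change was -0.78 over the list beside 0.00 over all genes. In 33 members (66%, beside 5.8% of all genes) every 4OHT library lay below every 4OHT+Fer1 library. Clspn (chr4:126556935-126593903), whose protein claspin relays the replication checkpoint signal, had 13.3, 16.3 and 12.9 CPM in 4OHT and 39.9, 44.7 and 43.5 CPM in 4OHT+Fer1. The groups were far apart, and the difference within replicates 1, 2 and 3 was -1.57, -1.44 and -1.74 on the log2 scale. This was 3.03-fold lower in 4OHT (log2 fold change -1.60, standard error 0.14, adjusted p = 0.000438). In ctrl and Fer1 libraries Clspn stood between 34.0 and 49.4 CPM, next to the 4OHT+Fer1 values, and in medium at 5.59 and 7.45 CPM. Rrm1 and Rrm2, the subunits of ribonucleotide reductase that makes deoxyribonucleotides, were 2.20-fold and 2.67-fold lower, Rrm1 with 36.7, 41.7 and 27.7 CPM against 76.3, 82.8 and 72.0 CPM. Tyms, thymidylate synthase, was 2.21-fold lower. Lig1, the ligase that joins Okazaki fragments, was 2.29-fold lower, and Mcm5, a subunit of the replicative helicase, 2.05-fold. Uhrf1, which maintains DNA methylation at forks, and Asf1b, a histone chaperone, fell 2.46-fold and 2.30-fold. Ticrr, needed to fire origins, and Pclaf, a partner of the sliding clamp PCNA, were among the other genes that fell, with log2 fold changes of -1.86 and -1.61. Lig1 overlaps Zswim9 and Ticrr overlaps Kif7 on the opposite strand in GENCODE M21, and whether the counting used strand is not given in the sources used here.

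Mitosis and chromosome segregation held the most falls of any list, 21 of 64 members tested (32.8%, beside 0.731% of all genes), with none that rose. The median log2 fold change was -1.20 and all 64 fitted values were negative. The 4OHT values lay entirely below those of 4OHT+Fer1 for 46 members (71.9%, beside 5.8% of all genes). Mki67, the proliferation marker Ki-67, had 96.8, 171 and 71.4 CPM in 4OHT and 296, 322 and 393 CPM in 4OHT+Fer1 (log2 fold change -1.60, standard error 0.28, adjusted p = 0.0205). Every 4OHT value was below every 4OHT+Fer1 value, and the ctrl and Fer1 libraries, at 230 to 382 CPM, lay in the range of the rescued supernatant or below it. In the medium control Mki67 was at 10.7 and 23.1 CPM, under every supernatant. Top2a, topoisomerase II alpha, which untangles sister chromosomes, went from 429, 593 and 687 CPM to 191, 279 and 90.7 CPM (log2 fold change -1.65, adjusted p = 0.0289). Ttk, a kinase of the spindle checkpoint, fell 3.25-fold, Spc25, a subunit of the kinetochore complex that binds microtubules, 2.86-fold, and Incenp, a subunit of the Aurora B complex, 2.06-fold. Smc2 and Ncapg, subunits of the condensin complex that compacts chromosomes, were 2.51-fold and 3.19-fold lower. Kif20b, a kinesin of cytokinesis, was 3.36-fold lower, and Esco2, an acetyltransferase that locks cohesin onto sister chromatids, 4.58-fold, at 2.63, 3.35 and 1.39 CPM against 13.5, 11.0 and 9.01 CPM. The centromere genes Cenpm and Cenpf had log2 fold changes of -1.59 and -1.43, of which that of Cenpf was not called (adjusted p = 0.0573). Smc4, the condensin partner of Smc2 and the most abundant member not called, stood at 433, 421 and 276 CPM against 1080, 539 and 632 CPM (log2 fold change -0.98, adjusted p = 0.179).

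The size of the mitotic decrease was not even over replicates. The median difference of the list was -0.78 in replicate 1, -0.75 in replicate 2 and -2.45 in replicate 3 on the log2 CPM scale. For DNA replication it was -0.70, -0.86 and -0.72, with no such gap for replicate 3. Homologous recombination and Fanconi repair had medians of -0.80, -0.28 and -1.44, and 4 of its 27 members tested fell, among them Rad51ap1, a factor of homologous recombination, and Brip1, a helicase of the Fanconi pathway (log2 fold changes -1.69 and -1.29). Of 30 G1 cyclins, CDK inhibitors, E2F and Myc genes tested, none was called and the median was -0.39. Over the 4 lists together, 36 of 171 members fell (21.1%, beside 0.731% of all genes) and none rose, which is 38.3% of all genes that fell. The count was 7, 11 and 36 without replicate 1, 2 or 3 of 4OHT, 22, 15 and 3 without those of 4OHT+Fer1, and 0, 0 and 26 without the whole replicate number. It was 9 without the replicate block, 8 with these 6 libraries alone, 59 without a filter on low counts and 63 with DESeq2. Ezh2, the histone methyltransferase of Polycomb complex 2, and the replication-dependent histone gene H2ac8 also fell outside these lists (log2 fold changes -1.14 and -1.79). H2ac8 has near-identical copies between which reads may have been split. How fully the 3′ tag kit used for these libraries captures histone transcripts was not tested.

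**Figure D2:**
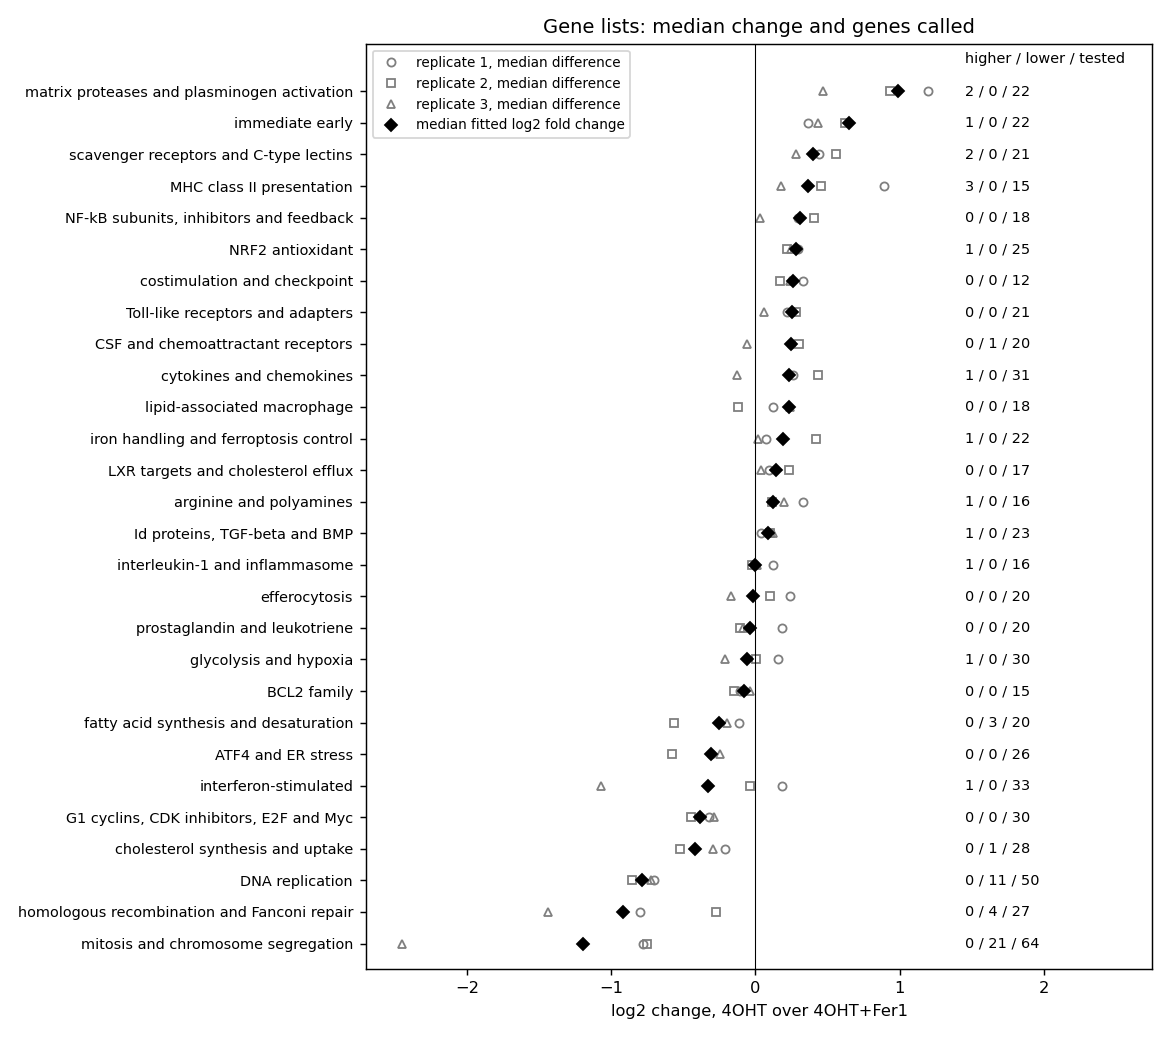
Median log2 change of 4OHT over 4OHT+Fer1 for each of the 28 gene lists, sorted by the median fitted log2 fold change (diamonds), with the median difference within each replicate number (open symbols) and, at the right, the members called higher, called lower and tested. The 3 lists with the lowest medians are mitosis, homologous recombination and DNA replication, and for mitosis replicate 3 lies at -2.45, away from the other replicates.

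Desaturase genes were among the largest falls. Scd1 and Scd2 encode stearoyl-CoA desaturases, which put the first double bond into saturated fatty acids, and Fads2 the delta-6 desaturase that starts the synthesis of long polyunsaturated fatty acids. Scd2 (chr19:44293674-44306864) had 19.5, 14.6 and 3.16 CPM in 4OHT and 99.3, 92.2 and 12.6 CPM in 4OHT+Fer1. The replicate 3 library was the lowest of each group, so that the groups overlapped, while within the 3 replicate numbers the difference was -2.34, -2.64 and -1.92 on the log2 scale. The fitted change was 5.16-fold lower in 4OHT (log2 fold change -2.37, standard error 0.20, adjusted p = 0.000438). Scd1, at 1.58, 1.72 and 0.127 CPM against 9.83, 11.7 and 2.05 CPM, had the largest fall of all genes called (log2 fold change -2.95, standard error 0.44, adjusted p = 0.0122). Fads2 went from 39.2, 39.1 and 13.9 CPM to 12.5, 11.8 and 2.66 CPM, with no overlap (log2 fold change -1.85, standard error 0.19, adjusted p = 0.00184). These were the 3 members called of 20 tested in the list of fatty acid synthesis and desaturation (15%, beside 0.731% of all genes called lower). The list median was -0.25 with 19 values below 0. The neighbour enzyme Fads1 was not called (log2 fold change -0.34, adjusted p = 0.336). In medium, all 3 desaturase genes were below their 4OHT values of replicates 1 and 2, Scd2 at 4.83 and 2.56 CPM.

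Of 28 genes of cholesterol synthesis and uptake tested, 1 fell (3.57%, beside 0.731% of all genes). It was Acat2, which makes acetoacetyl-CoA (15.4, 13.7 and 4.94 CPM against 24.9, 35.6 and 12.2 CPM, log2 fold change -1.14, adjusted p = 0.0274). Of the others 22 had negative values, for a list median of -0.42. Npc1, which exports cholesterol from lysosomes, stood at 0.20 (adjusted p = 0.566). Of 17 LXR targets and efflux genes none was called, with a median of 0.14.

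**Figure D3:**
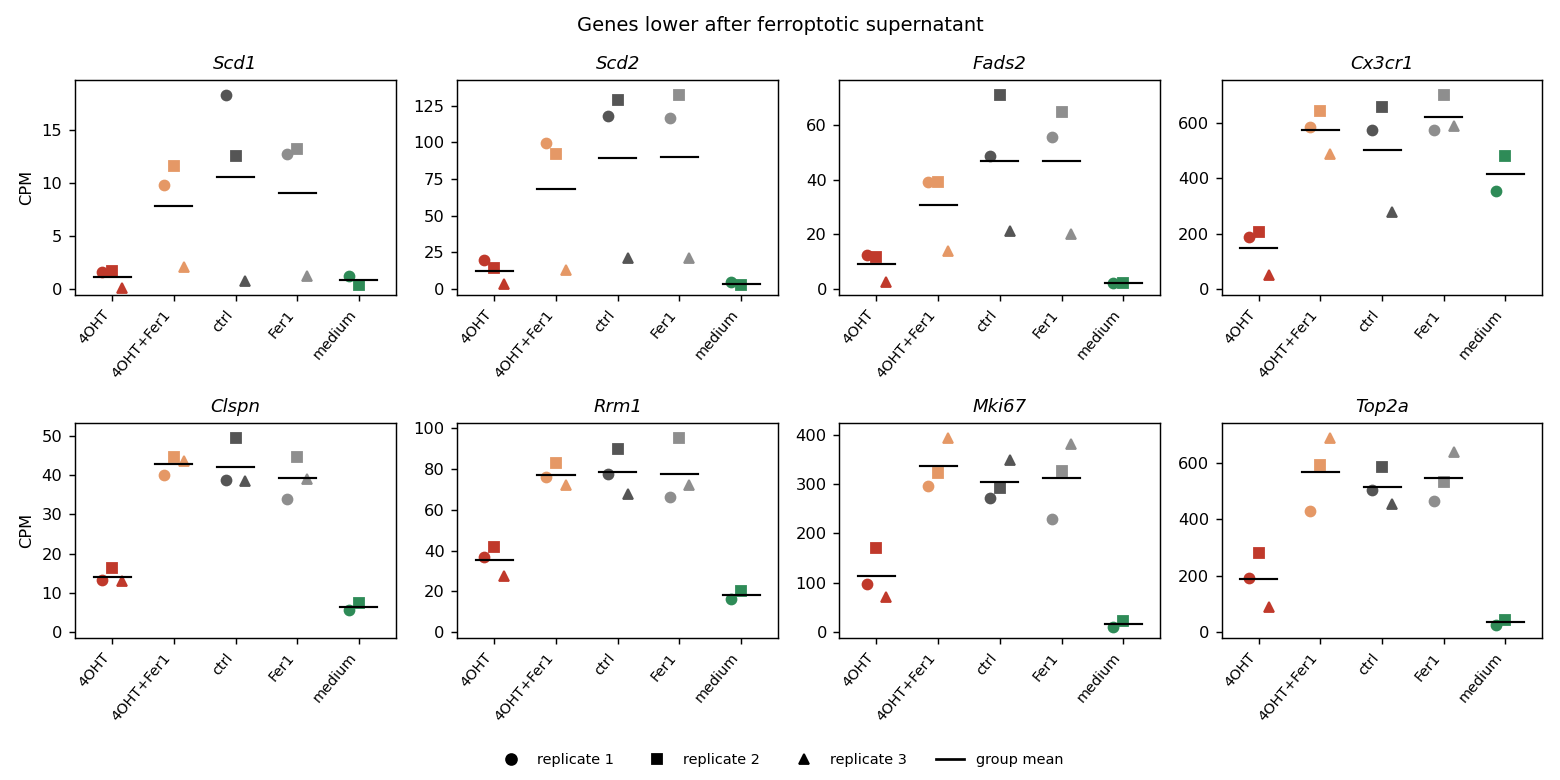
CPM of 8 genes that fell, on the y axis, in every library of the 5 groups on the x axis, with symbols for replicate numbers and a line for the group mean. The 4OHT points of Clspn lie below all points of 4OHT+Fer1, ctrl and Fer1, and the replicate 3 libraries are the lowest for Scd1, Scd2 and Fads2 in each supernatant.

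Among the genes that rose, Il1b, which encodes the cytokine precursor pro-interleukin-1 beta, had 37.4, 34.1 and 50.2 CPM in 4OHT and 2.30, 3.82 and 17.7 CPM in 4OHT+Fer1. The groups did not overlap, but replicate 3 of the rescued supernatant lay above its 2 companions, and the differences within replicates were 3.90, 3.09 and 1.49 on the log2 scale (fitted log2 fold change 2.92, standard error 0.40, adjusted p = 0.00753). In the medium control Il1b stood at 37.3 and 52.6 CPM, next to the 4OHT values, and in ctrl and Fer1 at 2.28 to 17.1 CPM. Of the 16 members of the interleukin-1 and inflammasome list tested it was the 1 called (6.25%, beside 0.296% of all genes called higher). The list median was 0.00. In the list of 31 cytokines and chemokines, Vegfa was the 1 member called. Its levels, 10.5, 10.6 and 7.85 CPM in 4OHT and 4.39, 2.44 and 3.89 CPM in 4OHT+Fer1, were both below the 32.7 to 45.6 CPM of ctrl. Vegfa, an angiogenic factor induced by low oxygen, thus had a log2 fold change of 1.44 in 4OHT against 4OHT+Fer1, of -2.03 in 4OHT against ctrl and of -3.47 in 4OHT+Fer1 against ctrl, comparisons that share libraries. Vegfa was also the 1 called of 30 members of the glycolysis and hypoxia list, with a median of -0.06. Spp1, which encodes the secreted phosphoprotein osteopontin, had 423, 493 and 160 CPM against 2317, 1418 and 192 CPM and did not pass (log2 fold change -1.38, adjusted p = 0.102). Il1b overlaps the antisense gene Il1bos.

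Receptors for particles and microbes were called one by one. Of 21 scavenger receptors and C-type lectins tested, 2 rose (9.52%, beside 0.296% of all genes), with a list median of 0.40. Marco, a scavenger receptor for bacteria and particles, had 4.43, 9.07 and 11.4 CPM in 4OHT and 0, 0.850 and 3.48 CPM in 4OHT+Fer1 (log2 fold change 2.99, standard error 0.54, adjusted p = 0.0246). Clec4n, which encodes the fungal pattern receptor dectin-2, had 145, 176 and 213 CPM against 16.7, 45.7 and 128 CPM, and in the rescued supernatant its replicate 3 was close to the 4OHT range. Clec4d, another lectin gene, stood at 899, 734 and 723 CPM against 583, 563 and 565 CPM and did not pass (adjusted p = 0.235). Of 21 Toll-like receptors and adapters none was called, with a median of 0.25, and the LPS co-receptor gene Cd14 stood at 0.69 (adjusted p = 0.483).

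MHC class II presentation had 3 of 15 members called, all higher (20%, beside 0.296% of all genes), with a median log2 fold change of 0.37. For none of the 15 did every 4OHT library lie above every 4OHT+Fer1 library. Ciita, the transactivator of this gene group, had 39.6, 31.3 and 64.2 CPM in 4OHT and 12.1, 8.60 and 42.5 CPM in 4OHT+Fer1. Cd74, the invariant chain, had 466, 246 and 658 CPM against 94.8, 98.6 and 307 CPM, and H2-Ab1, a class II beta chain, 128, 104 and 253 CPM against 19.2, 44.1 and 138 CPM. For each of the 3, the groups overlapped, with replicate 3 the highest of each group, whereas the 4OHT library was higher within every replicate number. Their log2 fold changes were 1.41, 1.59 and 1.54, with adjusted p of 0.0210, 0.00548 and 0.0330. Cathepsin S (Ctss), which trims the invariant chain, was not called (0.17, adjusted p = 0.739). The log2 fold changes of the same genes in ctrl against Fer1 were -0.15, 0.07 and -0.04. In medium, Cd74 stood at 949 and 721 CPM, above each supernatant.

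The list of matrix proteases and plasminogen activation had the highest median of all lists, 0.99, with 20 of 22 values above 0. Of the 22, 2 genes were called higher (9.09%, beside 0.296% of all genes). Thbs1, thrombospondin 1, an adhesive matrix protein, had 76.8, 86.8 and 32.0 CPM in 4OHT and 11.0, 7.75 and 18.5 CPM in 4OHT+Fer1 (log2 fold change 2.47, standard error 0.40, adjusted p = 0.0135). Serpinb2, plasminogen activator inhibitor 2, had 44 counts over the 3 libraries of 4OHT and 2 over those of 4OHT+Fer1, a ratio of 22.3 with a counting interval (95%) from 5.80 to 189, and an adjusted p of 0.0386. It overlaps Serpinb10 on the same strand. Outside the list, Vcan, the matrix proteoglycan versican, rose 5.36-fold, with 22.9, 24.7 and 18.1 CPM against 4.81, 2.97 and 5.12 CPM. Jaml, a junctional adhesion molecule of leukocytes, had 16.5, 12.3 and 19.0 CPM against 1.25, 0.531 and 11.8 CPM, with a difference of 0.68 in replicate 3 beside 3.51 and 4.08 in the others. Adgre4, an adhesion receptor of the EGF-TM7 family, had 5.48, 9.88 and 8.61 CPM against 0.523, 0.106 and 2.25 CPM (log2 fold change 3.76, standard error 0.79). Acpp, an acid phosphatase, had 3.27, 2.36 and 5.95 CPM against 0.105, 0.106 and 1.02 CPM (log2 fold change 3.77, standard error 0.74). In 4OHT+Fer1, 1 library of Adgre4 and 2 of Acpp were under the 3-count floor.

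**Figure D4:**
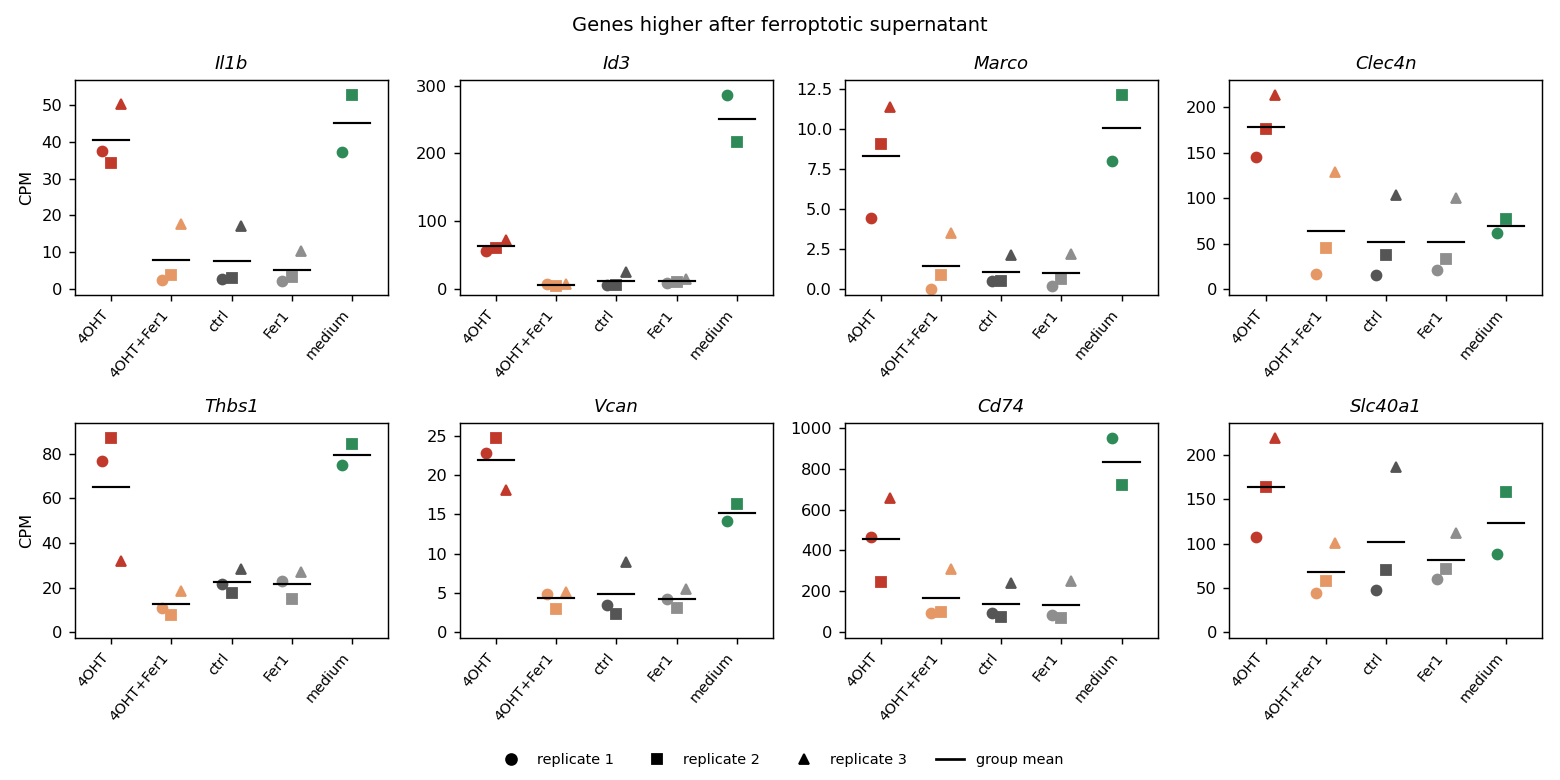
CPM of 8 genes that rose, on the y axis, in every library of the 5 groups on the x axis, with symbols for replicate numbers and a line for the group mean. The 4OHT points lie above the other supernatants for Il1b and Id3, while for Clec4n and Cd74 replicate 3 is high in every supernatant, and the medium points of Id3 and Cd74 lie above all supernatants.

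Regulators of transcription and signalling were the next group. Id3 (chr4:136143497-136145755), an inhibitor of basic helix-loop-helix factors that BMP and TGF-beta signals induce, had 56.3, 60.8 and 72.5 CPM in 4OHT and 7.21, 3.82 and 7.99 CPM in 4OHT+Fer1, groups far apart (log2 fold change 3.37, standard error 0.37, adjusted p = 0.00228). The medium control, at 286 and 216 CPM of Id3, was above every supernatant. Bmp2, a ligand of that pathway, had 4.0, 4.81 and 2.91 CPM in 4OHT and 0.627, 0.531 and 0.410 CPM in 4OHT+Fer1, the latter close to the 3-count floor (log2 fold change 2.90, standard error 0.58, adjusted p = 0.0352). Of the 23 members of the Id, TGF-beta and BMP list tested, Id3 was the 1 called (4.35%, beside 0.296% of all genes called higher). The median was 0.08. Tgfbi, a secreted TGF-beta target, had an adjusted p of 0.0210 with a log2 fold change of -0.85, short of the fold threshold. The immediate early list had a median of 0.65 with 19 of 22 values above 0, and 1 member called, the nuclear receptor gene Nr4a2 (2.05). Dusp5, a phosphatase of ERK, rose 6.38-fold, and Ahrr, the repressor of the aryl hydrocarbon receptor, 4.08-fold, the latter with 52.1 and 35.0 CPM in the replicate 3 libraries of 4OHT and 4OHT+Fer1. None of the 18 NF-kB subunits, inhibitors and feedback genes was called, with a median of 0.31. Relb and Nfkb2, of the non-canonical branch, stood at 0.79 and 0.56 (adjusted p = 0.0643 and 0.112), and Nfkbia, the feedback inhibitor, at 0.31 (adjusted p = 0.406). Prdm1, which encodes the repressor Blimp-1, had an adjusted p of 0.0292 at a log2 fold change of 0.99.

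Genes of metabolism and iron handling were likewise called singly, where 0.296% of all genes tested were called higher. Slc40a1 encodes ferroportin, the iron exporter, and had 108, 164 and 219 CPM in 4OHT and 44.0, 57.8 and 101 CPM in 4OHT+Fer1, without overlap (log2 fold change 1.31, standard error 0.21, adjusted p = 0.0132). It was the 1 called of 22 members of the iron and ferroptosis control list, whose median was 0.19. Trf, transferrin, which carries iron, was chosen after its value was seen and had 254, 255 and 271 CPM against 69.5, 120 and 197 CPM (log2 fold change 1.14, adjusted p = 0.0353). Of 25 NRF2 antioxidant genes, 1 rose, Gsr, glutathione reductase, 2.76-fold, and the median was 0.28. Of 16 arginine and polyamine genes, 1 rose, Arg2, the mitochondrial arginase, with 8.53, 8.52 and 4.81 CPM against 1.57, 0.850 and 1.33 CPM. Among the 33 interferon-stimulated genes Ifitm1, an antiviral membrane protein, rose 3.57-fold, at 11.8, 13.5 and 10.9 CPM against 1.36, 3.72 and 5.63 CPM. Another 26 had values below 0, for a list median of -0.33, and the medians within replicates 1, 2 and 3 were 0.18, -0.04 and -1.07.

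Ptger3, a prostaglandin E2 receptor, was at 4.74, 4.62 and 4.56 CPM in 4OHT and 0.732, 0.425 and 2.56 CPM in 4OHT+Fer1, without overlap, and missed the threshold (log2 fold change 2.24, adjusted p = 0.0573). Adam19 (1.68, adjusted p = 0.320), Irx3 (0.61, 0.758) and Cd274 (0.40, 0.382) did not pass either, and the direction of Irx3 was not the same in every replicate number. None of the 20 prostaglandin and leukotriene genes was called, with a median of -0.04. The remaining lists held no called gene either. Their medians were 0.26 for 12 costimulation and checkpoint genes, 0.23 for 18 genes of lipid-associated macrophages, -0.02 for 20 efferocytosis genes, -0.08 for 15 of the BCL2 family and -0.31 for 26 of ATF4 and ER stress.

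Of the genes that fell outside the cell cycle and lipid lists, Cx3cr1, the receptor of fractalkine, was the most abundant of the 15 largest falls, with 186, 207 and 48.8 CPM in 4OHT and 586, 646 and 490 CPM in 4OHT+Fer1 (log2 fold change -2.12, standard error 0.32, adjusted p = 0.0122). It was the 1 called of 20 CSF and chemoattractant receptors (5%, beside 0.731% of all genes called lower). The annotated span of Cx3cr1 overlaps several genes on both strands. Treml2, a receptor of the TREM family, had 17.9, 16.4 and 0.506 CPM against 58.9, 49.1 and 8.60 CPM, and as for Scd2 the replicate 3 libraries were the lowest in each group. Ccdc80 and Olfml3, which encode secreted matrix proteins, fell 5.86-fold and 3.98-fold. Ccdc80 had 0.948, 0.363 and 1.01 CPM in 4OHT, of which replicate 2 was close to the 3-count floor, and 4.08, 2.02 and 8.70 CPM in 4OHT+Fer1. For both genes, as for Col1a1, 4OHT replicate 2 was the lowest and 4OHT+Fer1 replicate 3 the highest of the 6 libraries. The part of other cell types in these falls was not tested. Atp2b4, a calcium pump of the plasma membrane, fell 3.50-fold, and Pkp3, a desmosome plaque protein, 3.74-fold. Mns1, Zfp618 and Prrg4 completed the 15 largest falls, with log2 fold changes of -1.91, -1.85 and -1.84.

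Fer-1 on supernatant of living MEFs gave no called gene. In ctrl against Fer1, 0 of 12851 genes (0%) passed in edgeR, 146 had an unadjusted p under 0.05 and DESeq2 called 3. The 38 genes that rose with ferroptotic supernatant had a median log2 fold change of 0.12 there and the 94 that fell a median of 0.00, with values from -1.60 to 1.34 and from -0.74 to 0.46. The medians of the lists were -0.02 for mitosis, 0.02 for DNA replication, 0.01 for fatty acid synthesis and -0.12 for MHC class II. Evenly spread p-values would put more than these 146 genes under 0.05. The test was thus conservative here, and 0 calls do not show an absence of effect. For its own fit of Fer-1 against control, the paper proposes low sensitivity and recomputed the p-values. It also reports that Fer-1 alone lowered basal prostaglandin release from living MEFs and enhanced IL-6 secretion by stimulated pBMDMs.

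**Figure D5:**
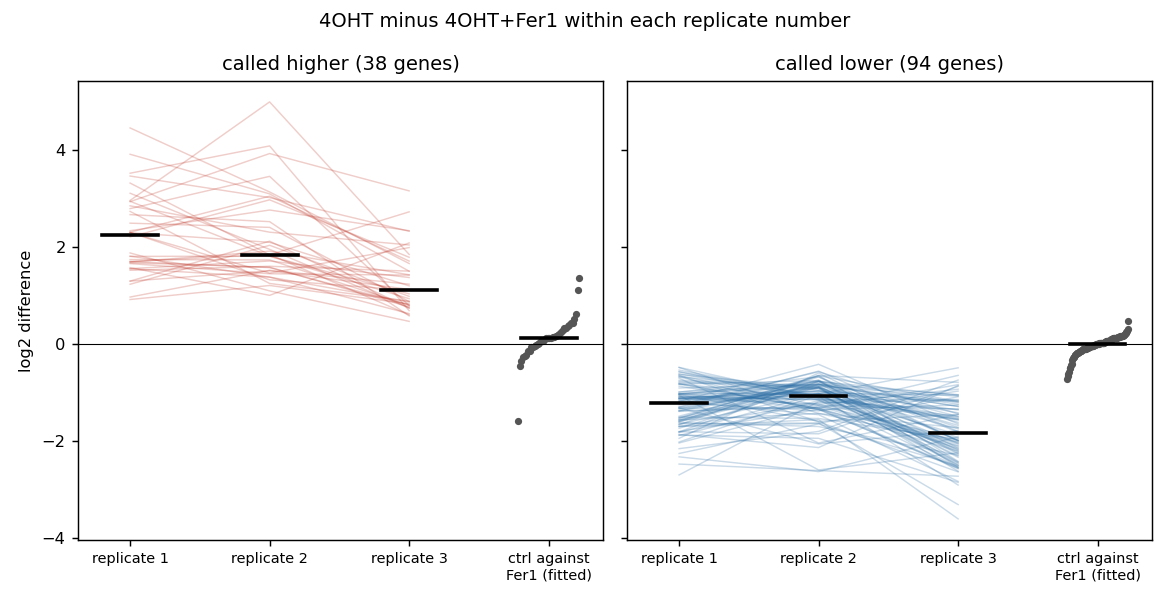
For the 38 genes called higher (left) and the 94 called lower (right), lines join the difference in log2 CPM between 4OHT and 4OHT+Fer1 in each replicate number, and points at the right of each panel give the fitted log2 fold change of ctrl against Fer1, with bars for medians. The medians are 2.24, 1.83 and 1.11 for the higher genes and -1.22, -1.08 and -1.85 for the lower genes, and for ctrl against Fer1 0.12 and 0.00.

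The difference of both effects was tested as well: the change on leaving out Fer-1 with 4OHT against the same change without 4OHT. It passed for 4 genes (0.0311% of those tested), and 797 had an unadjusted p under 0.05. Scd2 (-2.36, standard error 0.27, adjusted p = 0.00939), Clspn (-1.70, standard error 0.19, adjusted p = 0.00939) and Fads2 (-1.86, standard error 0.26, adjusted p = 0.0423) were lower, and Id3 was higher (3.53, standard error 0.51, adjusted p = 0.0489), on the log2 scale. In ctrl against Fer1 alone, their log2 fold changes were -0.01, 0.11, 0.01 and -0.16. For the other genes called, the difference from the effect without 4OHT did not pass. Between 0 and 1 of these tests passed without replicate 1 or 2 of 4OHT, between 1 and 2 without any one library of 4OHT+Fer1, and none without the replicate block, while 31 passed without replicate 3 of 4OHT and 67 with DESeq2.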

How the data were processed

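RNA of 14 pBMDM samples in 5 groups was sequenced with a 3′ tag kit (QuantSeq). The deposited values used here are estimated counts per gene, which the authors made with STAR 2.7.10a and Salmon 1.5.2, per the submitters' processing notes, which also name DESeq2 1.36.0, GRCh38 and GRCm38. The methods name a human reference, whereas the gene identifiers are those of mouse. The fits were planned for counts, and as 30109 values were not whole, all were rounded. A second table holds the authors' own fold changes, standard errors, p-values and test statistics, and it and its 14 columns of per-sample values were not used.

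All 14 libraries were fitted together with edgeR 4.0.16 (R 4.3.3, TMM factors, filterByExpr with a minimum count of 10, quasi-likelihood test, Benjamini-Hochberg adjustment over all genes tested), with group and replicate number as terms. A call required a log2 change beyond 1 in either direction and an adjusted p below 0.05. CPM are given per library. The difference within a replicate number was taken on log2 CPM with a prior count of 2. The study's methods fit the mouse as a term, and the replicate number was taken to stand for it, which the labels do not state. Deviations from the group means correlated at 0.19 to 0.45 between the 3 pairs of libraries with the same number and at -0.37 to 0.03 between the 6 other pairs. The study describes its replicates as independent biological ones, which the labels do not state, and p-values measure the spread among these samples. Between replicates, counts differed beyond sampling noise (chi-square per degree of freedom 26.9 to 79.4). Intervals and floors cover counting error only.

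The genes named were the 15 largest changes in each direction among those called and moving alike in every replicate number (predicted genes and pseudogenes left out), the called members of each list (up to 8, by p), the most abundant members not called, the genes passing the test of the difference between both effects and genes the study named on these samples, which are no independent evidence. Trf, Col1a1, Ezh2, Mcm5, Pclaf, Top2a and Cenpm were chosen after their values were seen, and Kif4 by its promoter. The members and lists were chosen with earlier results of these data known. Promoter sequences and motif matches come from RefSeq windows of GRCm38.p6, and gene coordinates from GENCODE M21 (GRCm38). The code was run on simulated counts with 200 genes changed 4-fold, of which 100% were recovered, with 7 false calls. The simulated spread was set in advance and not estimated from these libraries. This run therefore checks the code and does not measure how reliable the calls here are. Alternatives were other scalings, filters, DESeq2 1.42.0, no block, fewer libraries and each replicate left out. Some genes are not reported here.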

Additional observations from a re-analysis of the deposited data

Results flagged for a closer look

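The effect of leaving out Fer-1 differed between supernatants with and without 4OHT for 4 genes, by the test of that difference in edgeR. On the log2 scale it was -2.36 for Scd2, -1.70 for Clspn, -1.86 for Fads2 and 3.53 for Id3. In ctrl against Fer1 their log2 fold changes were between -0.16 and 0.11.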

How the results depend on the processing

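RLE or upper quartile scaling left 132 genes called, and a stricter filter on low counts 126. Without a filter on low counts 230 genes were called (77 higher, 153 lower), 32 for the difference between both effects and 59 of the cell cycle lists. DESeq2 called 247 (80 higher, 167 lower), 67, 63 of the cell cycle lists, and 3 in ctrl against Fer1. Without the replicate block 18 were called (5 higher, 13 lower), 0 for the difference between both effects and 9 of the cell cycle lists. With only the libraries of the groups compared it was 37 (17 higher, 20 lower), 2 and 8. Leaving out 1 replicate or library gave 0 to 282 called genes, 0 to 162 higher, 0 to 120 lower, 0 to 31 for the difference and 0 to 36 of the cell cycle lists, and 0 in ctrl against Fer1. The cause of these shifts was not tested. Of 61 genes named as called, 61 kept their call with DESeq2, 15 without the replicate block and 0 without replicate 1 or without replicate 2. None of the 61 reversed under these alternatives, which use the libraries on which the genes were selected. The depth, with 3 counts standing for 0.271 to 0.383 CPM, limits the named genes with a library at or under it in 1 group (Serpinb2, Acpp, Adgre4, Marco, Scd1, Pkp3 and Adam19) and others close to it, such as Bmp2.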
